A study of Mus musculus with 2 samples.

Results

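Fabp1, Fabp2, Rbp2, Cd36, Apob, Mttp, Apoa1, Apoa4, Apoc3 and Creb3l3, 10 genes that serve the binding, packaging and export of dietary lipid, were followed in epithelial cells of mouse small-intestinal organoids. Their rows were taken by symbol from a table of 37172 genes, and all 10 were present. Organoids are epithelial structures that grow in a gel from isolated crypts, here from the proximal small intestine of C57BL/6 WT mice, and all cells were harvested on day 4. The Matrigel culture (a basement membrane gel) was fed ENR medium, which holds EGF at 50 ng/mL, Noggin at 100 ng/mL and R-spondin1 at 400 ng/mL. The type I collagen culture was fed ENRW, to which nicotinamide (10 mM), bovine serum albumin (1%) and Wnt3a (100 ng/mL) are added. Gel, medium and the way the cells were freed (collagenase at 0.5 mg/mL or Cell Recovery Solution) therefore cannot be told apart. No label gives the age or number of the mice, and no villus or dietary fat is part of either culture.

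Enterocytes, the absorptive cells of the intestine, take up fatty acids and monoglycerides, rebuild triglyceride and load it onto apolipoprotein B to form chylomicrons that leave for the lymph. Fatty acid binding proteins carry the fatty acids inside the cell, and microsomal triglyceride transfer protein loads the nascent particle. Apolipoproteins A-I, A-IV and C-III join its surface. The transcription factor CREB3L3 is known to act on apolipoprotein genes in liver and intestine.

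Both cultures were tagged with hashtags (barcoded labels bound through an EpCAM antibody), pooled and sequenced together. The cells kept were 336 from collagen (median 124619 counts per cell) and 1599 from Matrigel (median 179044). No cell barcode was named for both cultures (0 barcodes). Each culture was 1 suspension, so no difference below has a replicate check and no p-value was computed. Levels are counts summed over cells and scaled to a total of 1000000 (CPM), with exact 95% Poisson intervals that cover counting error only. Log2 ratios were taken after adding 1 CPM, and a gene was called higher or lower at a ratio of 2-fold on that scale. A fold printed for a single gene is the ratio of CPM with nothing added. At low levels it is therefore larger than the log2 ratio beside it gives.

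Matrigel cells were also split by enterocyte content. The 120 of 1599 cells (7.50%) in which Rbp2 plus Sis, the brush border enzyme sucrase-isomaltase, came to at least 100 CPM are called enterocyte-rich cells, and the other 1479 are called the remaining Matrigel cells. The nearest cells on either side of the cut held 100.6 and 99.4 CPM. In collagen, 11 of 336 cells (3.27%) passed the same cut. Since Rbp2 was used to make the split, its difference between the Matrigel groups is not a result. Of 11 enterocyte markers other than Sis, which the cut used, 8 reached 5 CPM in the enterocyte-rich cells, 5 in the remaining Matrigel cells and 5 in collagen cells. Their summed level was 2009, 388 and 672 CPM in that order. Enteroendocrine markers moved with the split as well, at 2407 CPM in enterocyte-rich and 53.4 CPM in the remaining cells, and 11 of the 120 cells lay in a cluster led by Chgb, Cck and Paneth genes. Macrophage, endothelial, adipocyte and fibroblast markers summed to at most 9.01 CPM in every group, with C1qa, Cldn5 and Cfd at 0 in collagen.

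Promoter sequences are shown for 4 members that differed in where they were found, the 250 bases before the annotated start site, from the RefSeq promoter table of build GRCm38.p6, all on the plus strand. Fabp1 (chr6:71199629-71199878) and Rbp2 (chr9:98490287-98490536) encode binding proteins, and Apoa1 (chr9:46228380-46228629) and Apoa4 (chr9:46240594-46240843) are neighbours in the apolipoprotein cluster. Capitals mark matches on either strand to short motifs. AGGTCA is an element of nuclear receptors such as PPAR and HNF4. Factors of the GATA family are known to bind AGATAA, and the CDX factors of the intestine to bind TTTATG. The core promoter element TATAAA was searched as well.
Fabp1: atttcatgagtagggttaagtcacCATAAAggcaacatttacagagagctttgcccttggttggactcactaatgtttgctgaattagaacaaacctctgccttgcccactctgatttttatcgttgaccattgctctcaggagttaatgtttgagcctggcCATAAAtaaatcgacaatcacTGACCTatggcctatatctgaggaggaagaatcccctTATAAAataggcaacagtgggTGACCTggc
Rbp2: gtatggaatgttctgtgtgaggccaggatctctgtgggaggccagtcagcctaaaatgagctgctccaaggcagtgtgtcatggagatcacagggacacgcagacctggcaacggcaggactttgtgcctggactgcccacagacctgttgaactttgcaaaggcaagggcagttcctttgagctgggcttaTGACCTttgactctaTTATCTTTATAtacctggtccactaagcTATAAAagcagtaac
Apoa1: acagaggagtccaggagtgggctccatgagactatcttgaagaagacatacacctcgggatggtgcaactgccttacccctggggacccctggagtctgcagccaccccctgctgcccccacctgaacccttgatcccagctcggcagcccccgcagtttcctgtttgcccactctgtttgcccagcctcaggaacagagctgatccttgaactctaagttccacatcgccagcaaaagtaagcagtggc
Apoa4: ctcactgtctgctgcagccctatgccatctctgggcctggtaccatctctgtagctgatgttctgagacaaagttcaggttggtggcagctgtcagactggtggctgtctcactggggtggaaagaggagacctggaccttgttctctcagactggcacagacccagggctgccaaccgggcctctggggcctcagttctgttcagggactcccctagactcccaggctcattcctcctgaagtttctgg
The search covered windows of 300 bases that run on to 50 bases past the start site, for 9 of the 10 members (not Apoc3). AGGTCA was found at 2 places in Fabp1 (67 and 9 bases before the start), and in the windows of Rbp2, Cd36 and Creb3l3. Among all 32851 windows, 16.3% held it. TATAAA lay 30 bases before the start of Fabp1, 60 before that of Apob and at 2 places in Rbp2, of which the one in reverse overlaps an AGATAA match, against 13.6% of all windows. AGATAA (11.2% of windows) was also found in Creb3l3, and TTTATG (11.9%) in Fabp1 and Cd36. The element TGACGT, a CREB-type site held by 7.51% of windows, was found in Mttp. CAAAGTCCA, a longer HNF4 site, and the HNF1 consensus were found in no member (0.475% and 0.00913% of windows). None of the 7 motifs was found in the windows of Fabp2, Apoa1 or Apoa4. These matches describe letters only.

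Against all Matrigel cells, the members divided. Fabp1, Apob, Apoa1 and Creb3l3 (4 of 10) reached a 2-fold higher level in collagen, Fabp2, Rbp2, Apoa4 and Apoc3 (4 of 10) were at least 2-fold lower, and Cd36 and Mttp lay within 2-fold. Among 10593 genes reaching 5 CPM in either culture, 8.21% were called higher and 8.91% lower, with a median log2 ratio of -0.02. Cd36 and Apoc3 did not reach 5 CPM in either culture. With the enterocyte-rich cells left out of Matrigel, 5 of the 9 members other than Rbp2 were higher in collagen (the same 4 with Mttp), Fabp2 alone was lower, and Cd36, Apoa4 and Apoc3 lay within 2-fold. Rbp2 is left out of these counts, since the cut removed its high cells. Without the added 1 CPM, Apoa4 and Apoc3, both under 5 CPM, were 2.25-fold and 2.61-fold lower in collagen here. The background was 9.02% higher and 9.18% lower of 10590 genes. Against the enterocyte-rich cells alone, Apob was higher, 6 of the 9 were lower, and Cd36 and Creb3l3 lay within 2-fold, with 6.87% of genes higher and 6.12% lower. Cd36, under 5 CPM, was 2.85-fold lower there without the added 1 CPM. These comparisons share the collagen cells, so they are not independent of each other.

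**Figure D1:**
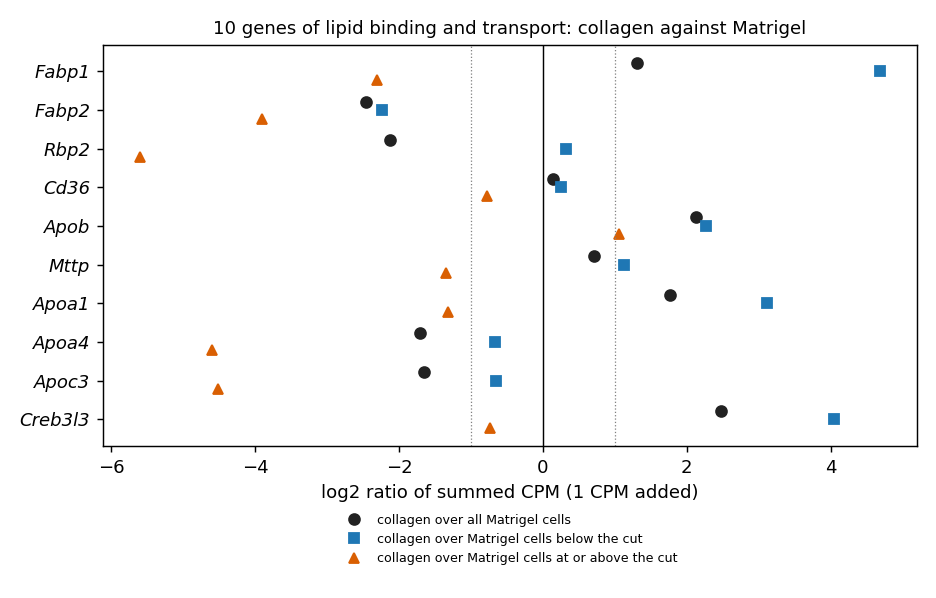
Log2 ratio of summed CPM (1 CPM added) of each of the 10 genes for collagen cells over all Matrigel cells (circles), over Matrigel cells below the cut on Rbp2 plus Sis (squares) and over those at or above it (triangles), with dotted lines at 2-fold. Apob is to the right of 1 in all comparisons, at 2.13, 2.27 and 1.06, while Fabp2 is to the left of -1 in all, at -2.45, -2.23 and -3.90.

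Fabp1, the liver-type fatty acid binding protein that proximal enterocytes also make, stood at 1110.0 CPM in collagen (1100.0 to 1120.0), 449 in all Matrigel cells (447 to 452), 5511 in enterocyte-rich cells and 42.4 in the remaining Matrigel cells. Its level in collagen was 2.47-fold that of all Matrigel cells (log2 ratio 1.30) and 26.2-fold that of the remaining Matrigel cells (log2 ratio 4.68). A few cells carried it: 28 of 336 collagen cells with at least 1000 CPM held 96.0% of the Fabp1 counts, and 69 of 1599 Matrigel cells held 91.4%. The median cell differed little, with 7.05 CPM in collagen and 6.60 CPM in Matrigel. When each cell was thinned to 77858 counts, 51.9% of 264 collagen cells (45.7% to 58.1%, exact binomial) and 48.3% of 1477 Matrigel cells held a Fabp1 count. The share was 51.5% of 33 cells of the Matrigel secretory cluster (Paneth, goblet and enteroendocrine genes), so a single count was at the background level. Without the cells at 1000 CPM or more, a level chosen after the values were seen, the log2 ratio was 0.25.

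Fabp2, the intestinal-type fatty acid binding protein, ran the other way. It stood at 42.5 CPM in collagen (40.5 to 44.5) and 236 in all Matrigel cells (235 to 238), with 649 in enterocyte-rich and 203 in the remaining cells. Its level was 5.57-fold lower in collagen than in all Matrigel cells and 4.79-fold lower than in the remaining ones. Unlike Fabp1, it was spread over the Matrigel culture, where the median cell held 177 CPM against 8.22 CPM in collagen. A Fabp2 count was found in 97.3% of thinned Matrigel cells (96.3% to 98.1%), in 84.8% of the secretory cluster and in 56.1% of collagen cells (49.8% to 62.1%). The secretory cluster held Fabp2 at 207 CPM (195 to 220), so its share is not a background for this gene. The intervals of the Matrigel and collagen shares did not overlap, with 1 suspension per culture.

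Rbp2, the retinol-binding protein of enterocytes, stood at 10.6 CPM in collagen (9.62 to 11.6), 49.3 in all Matrigel cells, 560.3 in enterocyte-rich and 8.24 in the remaining cells. Its level was 4.66-fold lower in collagen than in all Matrigel cells (log2 ratio -2.12), and the log2 ratio was -0.47, below the call, without the cells at 1000 CPM of Fabp1 or more. Against the remaining cells, from which high Rbp2 had been removed, the log2 ratio was 0.33, and it was -0.76 when cells past the cut were left out of both cultures. A single collagen cell, at 1530 CPM, held 33.1% of all collagen Rbp2 counts. That cell held 29354 CPM of Chgb and 22064 CPM of Cck, both enteroendocrine genes, had 79.5% of its hashtag counts from collagen, and showed 0 counts of Fabp1, Mttp and Apoa1. A count of Rbp2 was found in 13.6% of thinned collagen cells (9.74% to 18.4%) and in 9.09% (1.92% to 24.3%) of the secretory cluster. That cluster held Rbp2 at 23.9 CPM (19.9 to 28.5), so its share is not a background for this gene either.

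Cd36, a fatty acid translocase, was barely counted, with 0.638 CPM in collagen (0.418 to 0.923) and 0.477 CPM in Matrigel (0.400 to 0.564). Its intervals overlapped, and 1 collagen cell held 44.2% of the collagen counts. Enterocyte-rich cells stood at 1.81 CPM and the remaining cells at 0.370 CPM. A count was found in 2.65% of thinned collagen (1.07% to 5.39%) and 2.98% of thinned Matrigel cells (2.17% to 3.98%). The secretory cluster stood at 9.09% (1.92% to 24.3%), from 33 cells. No difference in Cd36 between the cultures was detectable at this depth.

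Apob, the structural protein of the chylomicron, stood at 103 CPM in collagen (99.8 to 106) and 22.7 in all Matrigel cells (22.1 to 23.2), with 48.9 in enterocyte-rich and 20.6 in the remaining cells. Its level in collagen was 4.54-fold that of all Matrigel cells and 2.10-fold that of the enterocyte-rich ones. The difference was carried by the culture at large: the median collagen cell held 69.9 CPM and the median Matrigel cell 12.9. A count was found in 93.9% of thinned collagen cells (90.3% to 96.5%), 58.2% of Matrigel cells (55.7% to 60.8%) and 24.2% of the secretory cluster (11.1% to 42.3%). The tenth of collagen cells highest in Apob held 36.3% of its counts, where the tenth highest in Fabp1 held 97.3% of that gene's.

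Mttp, which encodes the large subunit of the transfer protein that lipidates Apob, stood at 67.1 CPM in collagen (64.7 to 69.6), 40.7 in all Matrigel cells (40.0 to 41.5), 172 in enterocyte-rich and 30.2 in the remaining cells. Collagen cells were 1.65-fold above all Matrigel cells and 2.22-fold above the remaining ones. The medians lay close, at 26.1 CPM in collagen and 23.3 CPM in Matrigel, and the shares of thinned cells with a count overlapped in their intervals, at 68.2% (62.2% to 73.8%) and 72.8% (70.4% to 75.0%). The secretory cluster stood at 24.2%.

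Without thinning, which left out the shallower cells, the shares of collagen and Matrigel cells with a count were 60.4% and 64.5% for Fabp1, 57.1% and 95.4% for Fabp2, and 19.9% and 37.2% for Rbp2. They were 91.1% and 70.7% for Apob, 67.9% and 82.1% for Mttp, and 27.4% and 15.7% for Apoa1. Creb3l3 gave 28.3% and 6.07%, Cd36 5.65% and 7.75%, Apoa4 2.98% and 14.4%, and Apoc3 2.68% and 8.44%. The intervals of Mttp overlapped only after thinning, and the Matrigel cells were the deeper ones.

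**Figure D2:**
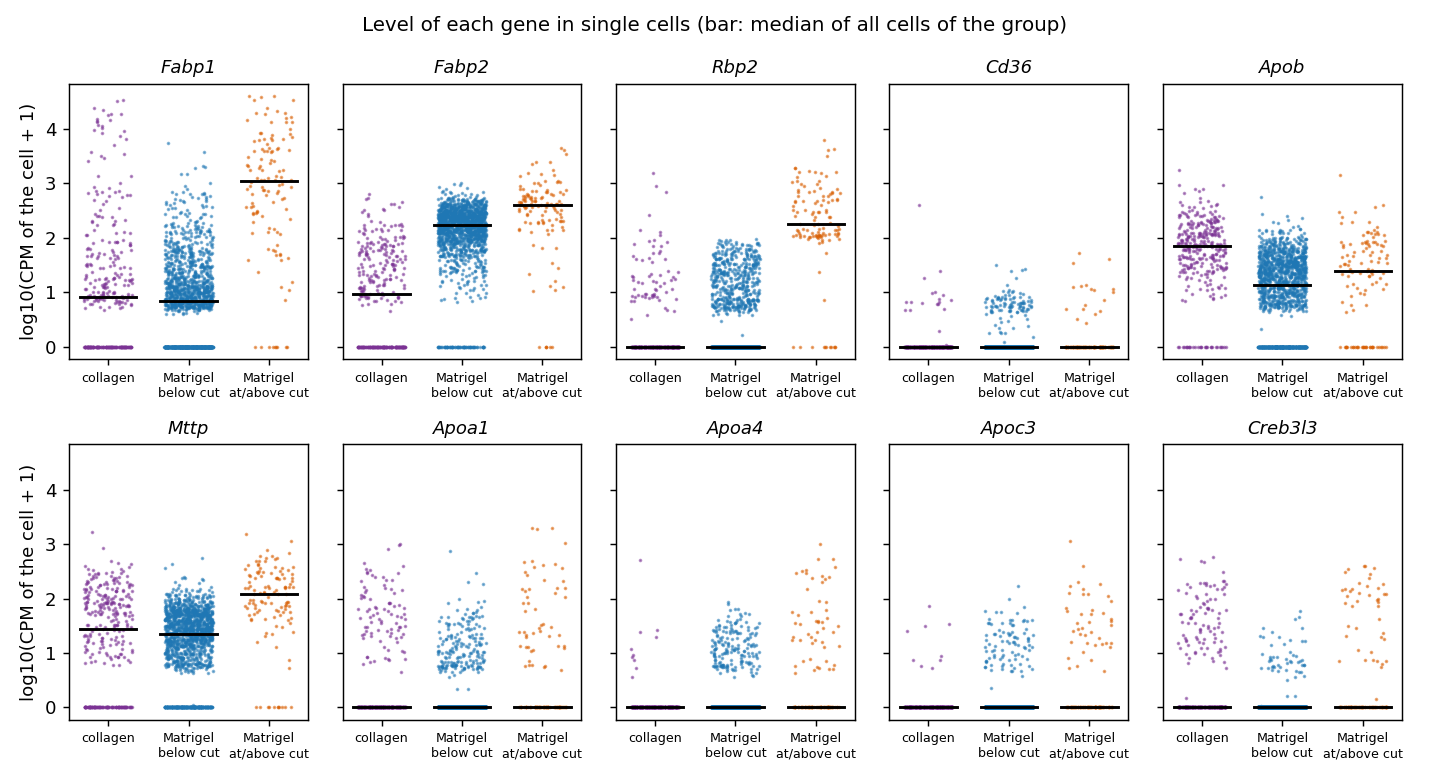
Level of each gene in single cells, as log10 of CPM plus 1, for collagen cells, Matrigel cells below the cut on Rbp2 plus Sis and Matrigel cells at or above it; each point is a cell and the bar is the median of all cells of the group, zeros included. Apob medians are 69.9, 12.4 and 24.0 CPM in that order and Fabp2 medians 8.22, 169 and 402, while Fabp1 spreads up to 34393 CPM in collagen around a median of 7.05.

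Apoa1, Apoc3 and Apoa4 lie next to each other on chromosome 9 in that order, between Sik3 and Apoa5 in the RefSeq gene table, and they did not move as a block. Apoa1, the main protein of high-density lipoprotein that intestine and liver secrete, stood at 32.7 CPM in collagen (31.0 to 34.4), 8.84 in all Matrigel cells (8.50 to 9.19), 82.8 in enterocyte-rich and 2.89 in the remaining cells. Without the added 1 CPM, it was 3.69-fold higher in collagen than in all Matrigel cells and 11.3-fold higher than in the remaining ones. With 1 CPM added, the log2 ratios were 1.77 and 3.11. A count was found in 28.0% of thinned collagen cells (22.7% to 33.9%) and 10.7% of Matrigel cells (9.17% to 12.4%). The secretory cluster stood between, at 15.2% (5.11% to 31.9%).

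Apoa4, a chylomicron protein abundant in fed proximal intestine, had only 38 counts in 10 collagen cells, or 0.893 CPM (0.632 to 1.23). All Matrigel cells stood at 5.20 CPM (4.94 to 5.47), enterocyte-rich cells at 45.0 and the remaining cells at 2.01. The level in collagen was 5.83-fold lower than in all Matrigel cells without the added 1 CPM, and the log2 ratio with it was -1.71. Of the 38 counts, 18 came from 1 shallow cell of 34816 counts that also held 689 CPM of Rbp2 and 862 CPM of Fabp1. Apoc3, whose protein slows the hydrolysis of triglyceride in particles, stood at 0.541 CPM in collagen (0.343 to 0.811), 3.84 in all Matrigel cells (3.62 to 4.07), 34.0 in enterocyte-rich and 1.41 in the remaining cells. Its log2 ratio to all Matrigel cells was -1.65. With 1 CPM added, both genes lay within 2-fold of the remaining cells (log2 ratios -0.67 and -0.65). Without it, the collagen level was 2.25-fold lower for Apoa4 and 2.61-fold lower for Apoc3. With 10 CPM added in place of 1, the log2 ratios to all Matrigel cells were -0.48 for Apoa4 and -0.39 for Apoc3, below the call. Counts were found in 2.27% (Apoa4) and 1.52% (Apoc3) of thinned collagen cells. The secretory cluster's 33 cells gave 6.06% (0.743% to 20.2%) and 3.03% (0.0767% to 15.8%). These intervals are too wide to place collagen cells above or below them.

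Creb3l3, the transcription factor of the set, stood at 20.5 CPM in collagen (19.1 to 21.9), 2.85 in all Matrigel cells (2.66 to 3.06), 34.7 in enterocyte-rich and 0.295 in the remaining cells. Without the added 1 CPM, its collagen level was 7.17-fold that of all Matrigel cells and 69.4-fold that of the remaining cells. With 1 CPM added, the log2 ratios were 2.48 and 4.05. The second rests on the low level of the remaining cells, and was 1.56 with 10 CPM added and 5.70 with 0.1 CPM added. Creb3l3 in collagen lay within 2-fold of the enterocyte-rich cells (log2 ratio -0.73). A count was found in 25.0% of thinned collagen cells (19.9% to 30.7%), 3.39% of Matrigel cells (2.52% to 4.44%) and 6.06% of the secretory cluster (0.743% to 20.2%). Of the members it had the highest ratio of collagen to all Matrigel cells in these sums.

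Within Matrigel, 9 of the 9 members that the split did not use were at least 2-fold higher in enterocyte-rich than in the remaining cells, where 5.47% of 10442 genes were called higher and 5.32% lower. Those genes reached 5 CPM in either group, which Cd36, at 1.81 and 0.370 CPM, did not. The log2 ratios ran from 1.04 for Cd36 and 1.21 for Apob to 4.78 for Creb3l3 and 6.99 for Fabp1. Without the 11 cells of the secretory cluster, 8 of 9 passed, with Cd36 at 0.95. The enterocyte-rich cells were themselves mixed. Of the 120, 47 formed a cluster of their own, called enterocyte-like since 9 of the 12 enterocyte markers were at least 2-fold higher there than in the other cells, and 43 fell in a cluster led by Dmbt1 and Cfhr2 with the brush border phosphatase Alpi. The clusters were built without the 10 members, mitochondrial and ribosomal genes.

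The cells past the cut in these 2 clusters differed in which members they held. Fabp1 stood at 11741 CPM in the enterocyte-like cells (11667 to 11815) and 1846 CPM in the cells of the Dmbt1 cluster (1818 to 1874). Apoa1 stood at 199 CPM (190.0 to 209) and 4.06 CPM (2.86 to 5.60), Apoa4 at 101 CPM (94.3 to 108) and 6.59 CPM (5.03 to 8.48), and Creb3l3 at 81.4 CPM (75.4 to 87.8) and 2.97 CPM (1.95 to 4.31). The 43 cells had been selected in part for Rbp2. Apob in them was 21.0 CPM (18.1 to 24.2), close to the 20.6 CPM of the remaining Matrigel cells. Without the enterocyte-like cluster, the log2 ratio of Apob between enterocyte-rich and remaining cells turned to -0.17. All 11 cut cells of the secretory cluster passed on Sis alone, with 950 CPM over these cells, and 3 of them on Rbp2 as well. They held 9.26 CPM of Fabp1.

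Across clusters of at least 20 cells of a culture, 9 of 10 members were highest in the enterocyte-like cluster, and Apob was highest in collagen. The share of all genes highest in the enterocyte-like cluster was not computed. All 47 of its cells were past the cut, so the place of Rbp2 is not a result. Cd36, at 3.43 CPM (2.24 to 4.87), overlapped in its interval with other clusters, such as a Matrigel cluster of 85 cells (0.944 to 3.62). Collagen cells fell mainly into a cluster of 243 led by S100a6, Msln and Wfdc2 with 7 of 9 regenerative markers (the fetal-like repair state) at least 2-fold higher. A cluster of 41 was led by Sprr1a and Plat, and a cluster of 25 shallow cells (median 45571 counts) was led by Sprr1a and Ly6d. Apob stood at 98.8 CPM (95.4 to 102), 148 CPM (137 to 160) and 202 CPM (178 to 227) in them, and at 96.6 CPM (90.0 to 103) in the enterocyte-like Matrigel cluster, so the first and the last did not differ beyond counting error. All other Matrigel clusters lay between 5.64 and 41.0 CPM of Apob. Creb3l3 followed in the order 81.4 CPM (enterocyte-like), 47.9 (Plat cluster), 37.3 (Ly6d cluster) and 17.4 CPM (main collagen cluster), of which the Plat and Ly6d clusters overlapped in their intervals (41.8 to 54.5 and 27.7 to 49.2).

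Fabp1 had another order in collagen, with 1268 CPM in the main cluster, 246 in the Plat cluster and 159.8 in the Ly6d cluster. Mttp stood at 72.7 CPM, 65.1 CPM and 25.0 CPM in the same order, and Apoa1 at 31.3, 42.8 and 32.1 CPM. Fabp2 was at 44.5, 11.8 and 55.3 CPM, and the collagen and Matrigel clusters did not overlap. The lowest Matrigel cluster, of 85 shallow cells that stayed unnamed, held 101 CPM of Fabp2 (92.2 to 109.9), and clusters with the stem genes Olfm4 and Gkn3 held 163 and 219 CPM. Finer clustering split the main collagen group. A group of 149 cells led by Adh1, Reg1 and Adh6a, with Ppara among its leading genes, held Fabp1 at 1756 CPM, Mttp at 104 CPM and Creb3l3 at 27.4 CPM. A group of 81 mitotic cells led by Cdc20 and Cenpa held 674, 31.1 and 3.71 CPM.

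**Figure D3:**
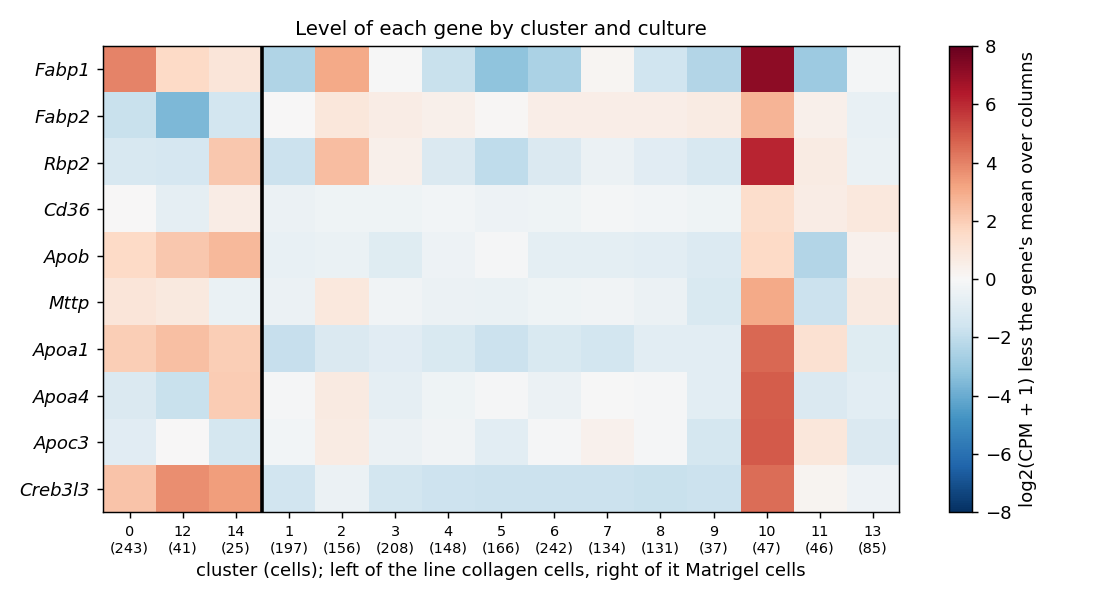
Level of each gene by cluster, as log2(CPM + 1) less the gene's mean over the columns, with collagen cells left of the line and Matrigel cells right of it and cell numbers in parentheses. The enterocyte-like cluster 10 is highest for 9 genes, among them Rbp2, which the cut used, and Cd36, whose interval overlaps other clusters. Collagen clusters 0, 12 and 14 lie above the mean for Apob, Apoa1 and Creb3l3 and below it for Fabp2.

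The cells with the highest Fabp1 were set side by side, at 1000 CPM or more in each culture, a level chosen after seeing the values, so what follows is a description. These 28 collagen cells (median 129121 counts) and 69 Matrigel cells (median 200566) had Fabp1 at 11932 CPM (11823 to 12042) and 8695 CPM (8645 to 8745). Rbp2 stood at 22.8 CPM (18.1 to 27.9) in the collagen and 774 CPM (759 to 789) in the Matrigel cells, with a count in 12 of 28 and 66 of 69 cells. Apoa4 stood at 1.32 CPM (0.427 to 3.07) and 66.1 CPM (61.9 to 70.6), with a count in 1 of 28 and 46 of 69 cells. Apoc3 gave 0.789 and 53.9 CPM, Fabp2 144 and 795 CPM, and Sis 10.5 and 411 CPM. These genes were thus low in collagen cells that carried as much Fabp1 as the Matrigel ones.

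Mttp stood at 233 CPM (218 to 248) in collagen and 216 CPM (208 to 224) in Matrigel. Creb3l3 stood at 102 CPM (92.2 to 113) and 46.8 CPM (43.2 to 50.6), with a count in 24 of 28 and 34 of 69 cells. Apob stood at 145 CPM (133 to 157) and 60.4 CPM (56.3 to 64.7), so that Creb3l3 and Apob were higher in the collagen cells. Apoa1 was lower there, at 89.2 CPM (80.0 to 99.2) and 127 CPM (122 to 134). Of the 28 collagen cells, 23 lay in the main collagen cluster and 0 in the enterocyte-like cluster, and the lowest share of the own hashtag was 95.5%. Of the 69 Matrigel cells, 61 were past the cut and 40 in the enterocyte-like cluster. In the 308 other collagen cells Fabp1 was 48.4 CPM and Creb3l3 12.4 CPM, and in the 1530 other Matrigel cells they were 40.4 and 0.677 CPM.

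**Figure D4:**
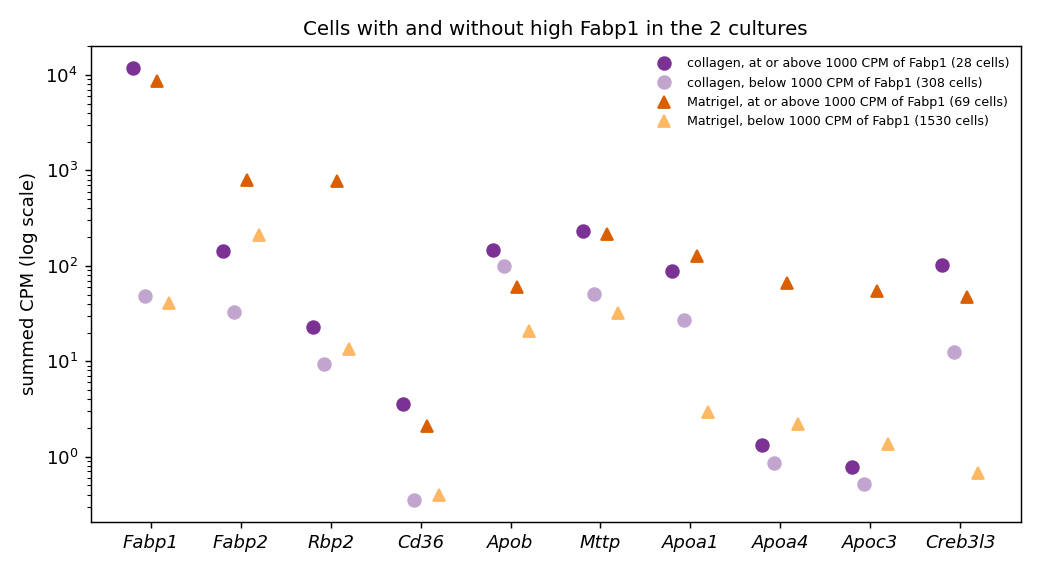
Summed CPM (log scale) of each gene in cells with at least 1000 CPM of Fabp1 and in the other cells of each culture. Collagen and Matrigel cells high in Fabp1 are close for Mttp (233 and 216 CPM) and far apart for Rbp2 (22.8 and 774) and Apoa4 (1.32 and 66.1).

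Within groups, the members varied together to different degrees. Over the 45 pairs of members, after thinning, the median Pearson correlation across cells was 0.45 in 102 enterocyte-rich cells (-0.0036 to 0.77), 0.03 in 1375 remaining Matrigel cells (-0.05 to 0.25) and 0.03 in 264 collagen cells (-0.11 to 0.46). Cells of a group share a library and a culture, and counts are sparse for most members, so weak values are not read. The highest pairs in collagen were Fabp1 with Creb3l3 (0.46) and Fabp1 with Mttp (0.39). In enterocyte-rich cells they were Fabp2 with Rbp2 (0.77) and Rbp2 with Mttp (0.71), of which Rbp2 was part of the cut.

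The genes most like the mean of the standardised members across thinned cells were ranked among 5173 genes in collagen and 5102 in Matrigel. In 264 collagen cells they were Hadhb (r = 0.47), a subunit of the mitochondrial trifunctional enzyme of fatty acid oxidation, Adh6a (0.44), Acot1 (0.43), a cytosolic acyl-CoA thioesterase, Slc26a6 (0.42) and Ces2e (0.42). In 1477 Matrigel cells they were Gsta1 (0.67), Sis (0.57), Mdh2 (0.54), Fth1 (0.53) and Alpi (0.48). By Spearman's correlation, 3 and 1 of these were again among the first 5. No gene stood in both cultures' first 5.

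The wider lipid pathways were read from 11 lists, by counts of genes reaching 5 CPM in either culture. Over the lists, 37 of 151 genes (24.5%) were at least 2-fold higher in collagen than in all Matrigel cells and 14 (9.27%) lower, beside 8.21% and 8.91% of all genes. The lists were chosen with earlier results of these data known. For triglyceride synthesis and lipid droplets, 5 of 19 were higher and 1 lower, with a median log2 ratio of 0.68 against -0.02 over all genes. Mogat2, the monoacylglycerol acyltransferase of enterocytes, stood at 25.9 CPM in collagen and 10.9 CPM in Matrigel, and Agpat2, an acyltransferase of the glycerol phosphate route, at 68.2 and 30.5 CPM. Gpam, which opens that route, was lower, at 11.9 and 28.9 CPM. For fatty acid uptake and binding, 2 of 13 were higher and 0 lower (median 0.25). Those were the acyl-CoA synthetases Acsl5, at 265 and 107 CPM, and Acsl4, at 42.1 and 14.8 CPM.

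For chylomicron assembly and export, 2 of 16 were higher and 0 lower (median 0.23), which is near the 8.21% of all genes for the higher calls. Tm6sf2, which aids the lipidation of Apob particles, stood at 45.7 CPM in collagen and 16.0 CPM in Matrigel, and Sec23a, a coat protein of vesicles leaving the endoplasmic reticulum, at 34.0 and 15.3 CPM. Of 4 genes for editing the Apob messenger, 1 was higher. It was Apobec1, the deaminase that creates the short intestinal form, at 20.4 CPM in collagen and 3.54 CPM in Matrigel. Its cofactors A1cf (13.6 and 11.4 CPM) and Rbm47 (124 and 72.4 CPM) lay within 2-fold, and the table cannot show whether the Apob messenger was edited.

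For sterol uptake and efflux, 2 of 10 were higher and 0 lower (median 0.45), with the sterol exporter Abcg5 at 23.3 CPM in collagen and 2.88 CPM in Matrigel. Among PPAR target genes, 9 of 21 were higher and 0 lower (median 0.70). Vnn1 (a pantetheinase) stood at 14.1 and 1.21 CPM, and Me1 (malic enzyme) at 55.5 and 9.51 CPM. Among the 9, Acaa1b had 92.6% of its values fractional, Acadl 86.6%, Acot2 69.1% and Me1 29.6%. Reads of these genes may be shared with other genes. For retinoid handling, 4 of 14 were higher and 4 lower (median -0.39). Rdh10, a retinol dehydrogenase, stood at 106 and 36.4 CPM, and Aldh1a1, a retinal dehydrogenase, at 10.1 CPM in collagen, 21.4 in all Matrigel cells and 205 in enterocyte-rich cells.

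For lipid-responsive and enterocyte transcription factors, 3 of 32 were higher and 4 lower (median 0.21), near the shares of all genes (8.21% and 8.91%). Nr1h4, the bile acid receptor, stood at 25.1 CPM in collagen and 10.9 CPM in Matrigel, and Cdx1, an intestinal homeobox factor, at 51.8 and 123 CPM. Creb3l1, a relative of Creb3l3, was lower in collagen, at 3.67 and 13.3 CPM. For the brush border, 5 of 14 were higher and 2 lower (median 0.19), with the protocadherins Cdhr2 at 62.1 and 15.3 CPM and Cdhr5 at 89.8 and 24.0 CPM, and with Sis (6.02 and 26.5 CPM) and Dpp4 (16.5 and 47.2 CPM) lower. Of 7 proximal genes, 3 were higher and 2 lower, among them the duodenal ferric reductase Cybrd1, at 93.9 and 9.10 CPM. Of 3 distal genes reaching the level, 2 were higher and 1 lower (median 2.08), with Fgf15, the ileal hormone, at 10.6 and 0.132 CPM. Guca2a was listed with no value above 0 under 9, so its level in cells with few counts is not known.

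**Figure D5:**
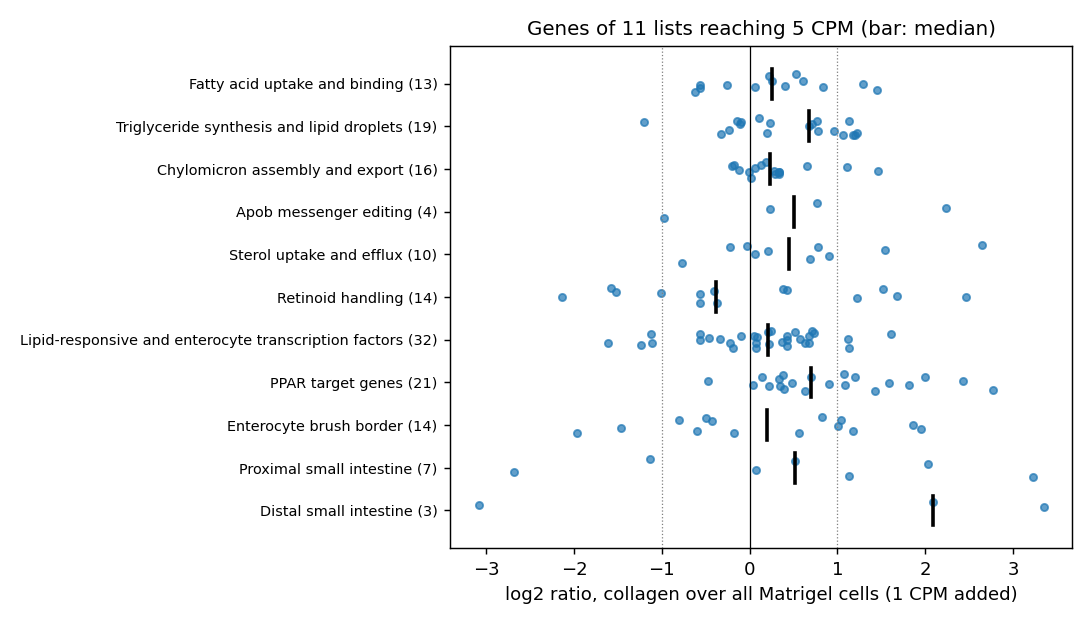
Log2 ratio of collagen over all Matrigel cells (1 CPM added) for each gene of 11 lists that reached 5 CPM in either culture; each point is a gene, the bar is the list's median, the number of genes is in parentheses and dotted lines mark 2-fold. PPAR targets and triglyceride synthesis have medians of 0.70 and 0.68, and retinoid handling -0.39.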

How the data were processed

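Cells of both cultures went through 1 BD Rhapsody run with TAS-Seq amplification, per the labels' protocols. The submitters' processing notes name cutadapt 4.1, STARsolo 2.7.10a, R 4.2.1 and build GRCm39, with no role. The authors deposited expected counts per gene and cell, with 75.6% of the values above 0 whole within 1e-06. No source used here says whether copies of a molecule were collapsed. The deposited hashtag counts are whole numbers. Cell names give the culture. Left out were 139 cells named as doublets; no doublet caller was run. Kept cells had 500 or more genes and no more than 30% mitochondrial counts (16 Matrigel and 0 collagen cells removed).

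Counts were summed per group to CPM. The call is a log2 ratio of at least 2-fold after adding 1 CPM. Poisson sums were rounded to whole counts, and shares use exact Clopper-Pearson intervals at 95% (scipy 1.17.1); limits of a count of 0 are 3 counts. For shares, cells were thinned to 77858 counts, the percentile 10 of depth, which left 264 collagen and 1477 Matrigel cells. Clusters (scanpy 1.11.5, 2000 variable genes, 30 components, 15 neighbours, Leiden resolution 1) left out the members, mitochondrial and ribosomal genes. The calculation was checked on simulated data.

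Members and lists were chosen with earlier results of these data known. Within each list up to 4 genes were named, those reaching 10 CPM with the largest absolute log2 ratio, and 5 genes per culture for likeness among those reaching 20 CPM; of these, only some are reported here. Apoa5 and Vamp7 had no entry matched and are not analysed here. The sequence table is of build GRCm38.p6, not that of the counts, and was used for promoters and gene neighbours only.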

Additional observations from a re-analysis of the deposited data

Results flagged for a closer look

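The 139 cells whose names call them doublets entered no comparison, and all 10 genes were counted in them above the limit that 3 counts set (0.131 CPM). Fabp1 stood at 1102 CPM (1089 to 1116), Fabp2 at 179.8 CPM (174 to 185) and Rbp2 at 29.3 CPM (27.1 to 31.6). Apob stood at 39.9 CPM (37.3 to 42.5), Mttp at 57.3 CPM (54.3 to 60.5) and Creb3l3 at 8.25 CPM (7.10 to 9.50), each between the levels of the collagen and Matrigel cells. Apoa1 at 14.2 CPM, Apoa4 at 2.35 CPM and Apoc3 at 2.7 CPM lay between them as well, and Cd36 was at 0.420 CPM. Fabp1 in these cells was close to the 1110.0 CPM of collagen cells and above the 449 CPM of Matrigel cells.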

How the results depend on the processing

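No paired analysis was possible because each culture was 1 suspension with no replicate, so leaving out a replicate was not possible either. Of 115 recomputed counts, 106 stayed within 1.5 times their main value. Of the recomputed log2 ratios of single members, 304 stayed within their counting interval and 163 moved outside it. A change of sign was counted apart only where the main value was at least 1 in size, which held for 1. Smaller ratios that changed sign are among the others. Cd36 against all Matrigel cells, for example, went from 0.15 to -0.14 without its 5 highest cells. The number of members called lower in collagen than in all Matrigel cells, 4, was 2 with 10 CPM added in place of 1 and 1 without the cells at 1000 CPM of Fabp1. The number called lower than in Matrigel cells below the cut, 1, was 3 with 0.1 CPM added, and 2 with cells thinned, without the 5 cells highest in each member, with cells past the cut left out of both cultures, and without the shallow collagen cluster; each of these added Apoa4. Of the 5 genes most like the members, 3 in collagen and 1 in Matrigel were kept by Spearman's correlation. The log2 ratio of Apob between Matrigel cells at or above the cut and those below turned from 1.21 to -0.17 without the enterocyte-like cluster. The last, the shallow collagen cluster and the Fabp1 level were chosen after seeing the data. Over 15 alternatives, the log2 ratio of collagen to all Matrigel cells ran from 1.79 to 2.21 for Apob, from -2.69 to -2.08 for Fabp2, from 1.18 to 2.83 for Apoa1, from 1.24 to 3.00 for Creb3l3 and from 0.25 to 1.61 for Fabp1. It ran from -2.74 to -0.47 for Rbp2 and from -2.42 to -0.48 for Apoa4, and over 14 alternatives from -2.62 to -0.39 for Apoc3. Rbp2 fell short of the call without the cells at 1000 CPM of Fabp1, and Apoa4 and Apoc3 there and with 10 CPM added. No member had its low values removed, so that alternative changed nothing. Depth limits Cd36, Apoa4 and Apoc3 in collagen, with 27.1, 38 and 23 counts; intervals cover counting error only and would be too narrow if PCR copies entered the counts.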
